A study of Mus musculus with 6 samples.

Results

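The genes described here encode proteins of the cytoplasmic ribosome. They were taken by symbol: every probe set, a group of short oligonucleotides read as 1 signal, whose single gene symbol begins with Rpl or Rps and a digit, or is Rplp0 or Rpsa (the symbols Rplp1 and Rplp2 would also have counted), leaving out the S6 kinase genes and pseudogenes. This gave 35 genes read by 49 probe sets, of 8251 genes with a symbol of their own and 12422 probe sets on the array. The large subunit contributed 17 genes and the small subunit 18. Of the 35 symbols, Rpl7l1, Rpl39l, Rps27l and Rps4l name paralogs rather than the standard subunit. A further 9 probe sets list several symbols, all of ribosomal protein genes or pseudogenes named after them, and are not members. Ribosomal protein probe sets that also list other symbols, such as those of Rps2 and Rplp1, are outside this count and not members.

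RNA came from mouse lung dissected at embryonic stage E11.5. In the branching group it was from the region of right and left lung where branches form, and in the non-branching group from the main bronchi with a part of the trachea. Each group has 3 arrays. The labels give no genotype, strain, treatment or number of embryos, and nothing says that the replicates came from separate embryos, so the p-values reflect how far these arrays spread, and that spread may be technical. The question is which genes differ between the regions.

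A ribosome joins a small subunit, which holds the mRNA and decodes it, to a large subunit, which forms the peptide bonds. Each subunit takes up its proteins in fixed proportion on a scaffold of ribosomal RNA, and the mRNAs of these proteins are among the most abundant in growing cells. In mammals many of these mRNAs begin with a stretch of pyrimidines, the terminal oligopyrimidine motif, through which mTOR signalling controls their translation together. Loss of 1 copy of several of the genes, among them RPS19, RPS24, RPS7, RPS10 and RPL35A, causes Diamond-Blackfan anaemia in people.

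No ribosomal protein gene passed the test, and most of the bright ones had slightly less signal in the branching region. Of 39 member probe sets that were bright enough to be tested, 0 were higher and 0 lower in branching at a limma adjusted p under 0.05, against 0.902% and 1.13% of all 9316 tested probe sets. At an unadjusted limma p under 0.05, 1 member probe set was higher and 9 were lower, against 6.92% and 7.70% of all tested. The 9 became 5 without non-branching replicate 3, 5 with each array centred on its median and 1 without the variance trend. They became 13 without branching replicate 1, 11 with array weights and 10 with the dimmer 50% left out. The log2 difference, branching minus non-branching, was negative in 24 of the 29 genes tested (1 probe set per gene, the one with the highest mean signal), and its median was -0.16, or -0.09 with quantile normalization. The median over all tested probe sets was 0.00, with 50.4% negative. The 3 branching values lay below the 3 non-branching values in 10 of the 39 probe sets, which is 25.6%, against 11.0% of all tested. They lay above in 1, Rpl7l1, against 9.79% of all tested.

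These genes are read at the bright end of the array, where the replicates of all genes lie closer together. Of the brightest 10% of tested probe sets, members included, 17.2% had all branching values below and 19.3% had all above. Among the 18 member probe sets with a mean signal over 10000, 9 had all branching values below, 0 had all above, and the median difference was -0.17. The 95 other probe sets over 10000 had 27 below, 18 above and a median of -0.05. They include ribosomal protein probe sets with several symbols, such as those of Rps2, Rplp1, Rpl5 and Rps6. Of the 95, the 48 with a single gene symbol had 12 below, 14 above and a median of 0.08. The difference between members and others was not tested. Of the 9 probe sets with several ribosomal protein symbols, 8 were tested, and these had 3 below, 0 above and a median of -0.14. Probe sets that also list other symbols, such as those of Rps2 (0.10) and Rplp1 (-0.23), are not among them.

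**Figure D1:**
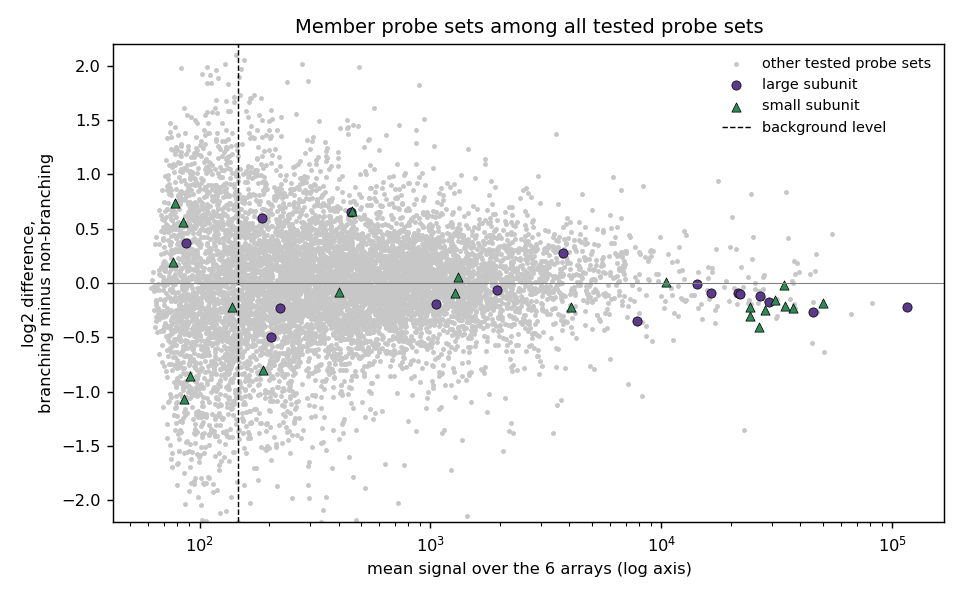
Log2 difference between the regions (vertical axis) against the mean signal over the 6 arrays (horizontal log axis) for each tested probe set, with large subunit (circles), small subunit (triangles) and other probe sets (grey points). The 18 member probe sets over 10000 sit between -0.40 and 0.01, the dim ones scatter widely on both sides of the dashed background level of 147, and 32 other probe sets lie beyond the axis limits of 2.2 in either direction.

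Some members could not be read. A signal of 147 was taken as background: 95% of the control values, from probe sets for transcripts of bacteria and yeast, lie below it. Of the 49 member probe sets, 28 were above it on all 6 arrays, 11 on some and 10 on none. Rpl32, Rpl39, Rps14 and Rps20, core proteins of the ribosome, had no probe set above background on any array, although every growing cell uses them, so their signals say nothing of their mRNA. Together with Rpl39l and Rps27l, above background on 1 array each, they were too dim to be tested. Rpl35a and Rps15 were tested, but their means were below background in both regions, so no difference is given. Rpl38, which is needed for the translation of some Hox mRNAs, was above background on 5 of 6 arrays and differed by -0.50 ± 0.37 (SE of the fit, n = 3 per region, limma adjusted p = 0.599). That leaves 26 genes above background on all arrays, 12 of the large and 14 of the small subunit. Of 31 ribosomal protein genes listed by their role, 16 are not members, among them the stalk genes Rplp1 and Rplp2, the S6 kinase substrate gene Rps6, and Rpl5 and Rpl11, whose proteins bind Mdm2. No probe set carries those symbols alone in the platform annotation, so they were not analysed as members. Rpl5 (-0.04) and Rps6 (-0.12) were read among the probe sets with several ribosomal protein symbols. Rplp1 (-0.23) was read among the other probe sets. Fau, a ribosomal protein gene fused to a ubiquitin-like part, was at or below background on every array.

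**Figure D2:**
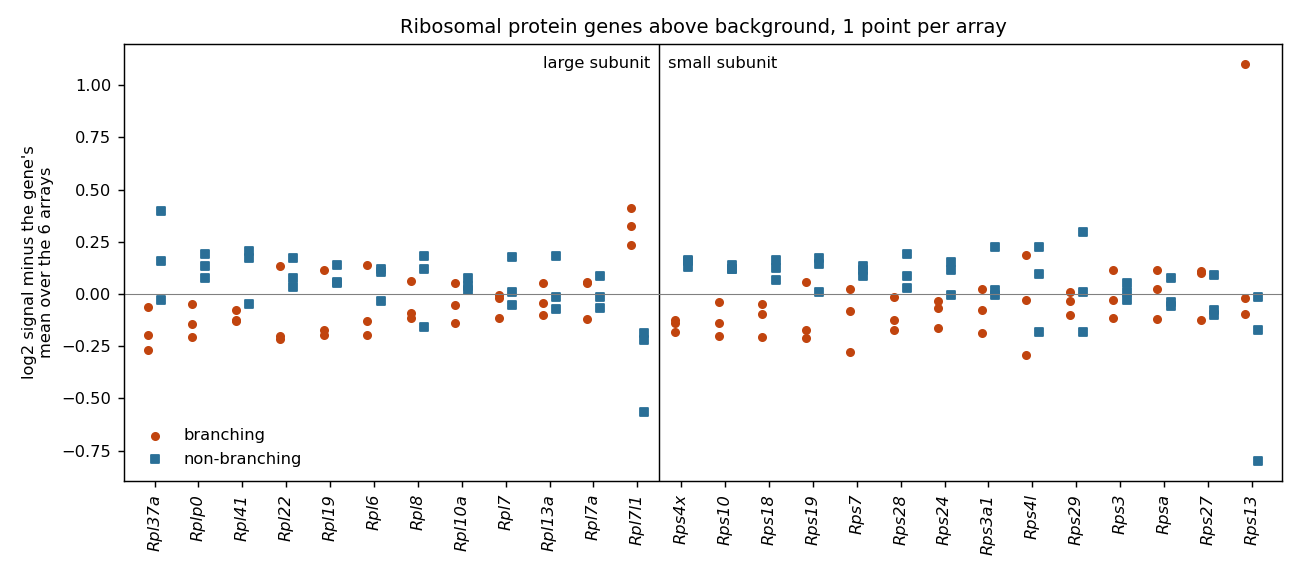
Log2 signal of the 26 genes above background on each array, as the difference from the gene's own mean over the 6 arrays (vertical axis), for branching (circles) and non-branching arrays (squares), with the large subunit on the left and the small on the right. In 9 genes the 3 circles lie below the 3 squares, in Rpl7l1 they lie above, and in the other 16 the groups overlap.

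The start regions of the members were searched for runs of pyrimidines. A run did not have to lie at the first base of the mRNA, so the search does not measure the terminal oligopyrimidine motif. RefSeq start windows (GRCm38.p6, 250 bases before to 50 after each annotated start) were at hand for 28 of the 35 genes, by gene identifier. A run of at least 8 C or T letters on the gene's strand, within 50 bases of the start, was found in 20 of the 28, which is 71.4%, against 39.3% of all 27025 genes with a window. The letters CGGAAG, the core of sites for ETS factors such as GABP, were found on either strand in 19 of the 28, which is 67.9%, against 18.8%. A run was present in 6 of the 9 genes whose branching values all lay below and in 8 of the 12 genes above background that overlapped and had a window, which is 66.7% of each. By subunit, a run was present in 12 of 14 large and 8 of 14 small subunit genes. The stretches below are 30 bases each, 5' to 3', with the run in capitals. The first 6 are the genes with lower branching values that hold a run, and Rpl7a and Rps27 stand for genes whose regions overlapped. The matches describe letters near an annotated start and show no binding.

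Rpl37a, chr1:72711274-72711303, plus strand: cgcattgcgTCCCTTCCTCTTCggacttgg

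Rpl41, chr10:128549119-128549148, minus strand: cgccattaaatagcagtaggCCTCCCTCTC

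Rps10, chr17:27635227-27635256, minus strand: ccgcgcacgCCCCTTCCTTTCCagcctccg

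Rps18, chr17:33955648-33955677, minus strand: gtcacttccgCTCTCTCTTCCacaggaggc

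Rps24, chr14:24490710-24490739, plus strand: gagcggTCCTCTTTTCCTCCTCTCCagctc

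Rps7, chr12:28635911-28635940, minus strand: ctgtccccaCCTCTTTTCTTCCgccacccg

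Rpl7a, chr2:26910788-26910817, plus strand: cacaaTTCCCTCTTCTTTCTTTCTCCagca

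Rps27, chr3:90213632-90213661, minus strand: ttccgctttcgCTCCTTTCCggcggtgacg

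The run of Rpl7a spans 21 letters and that of Rps24 19, and the others shown have 9 to 13. Counted from the annotated start, the runs shown begin at -37 for Rps24, -14 for Rpl7a, -3 for Rps10 and -2 for Rps18 and Rps27. Those of Rps7, Rpl37a and Rpl41 begin at 22, 23 and 40. The run of Rpl41 ends where its window ends. Rplp0, Rps28 and Rps4x, which also had lower branching values, hold no run of 8 in the part searched. This does not show that their mRNAs lack a terminal pyrimidine motif.

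In the large subunit, 3 of 12 genes above background had all branching values below the non-branching ones. That is 25%, against 11.0% of all tested probe sets and 17.2% of the brightest 10%. Rplp0, the base of the stalk that recruits elongation factors, had signals of 43627, 40825 and 39145 in branching and 47624, 49565 and 51617 in non-branching. Its means were 41199 ± 2264 (SD, n = 3) and 49602 ± 1997, and its log2 difference was -0.27 ± 0.08 (SE, limma adjusted p = 0.143). The highest branching array was thus below the lowest non-branching one, by about as much as the 3 arrays of a region differ among themselves. Rpl37a, a small zinc-binding protein gene, read 6424, 6751 and 7390 in branching and 7569, 10165 and 8626 in non-branching. The groups nearly touched, and the difference was -0.35 ± 0.12 (limma adjusted p = 0.199). Rpl41, which encodes the smallest ribosomal protein, read 105190, 109004 and 105559 in branching and 110971, 129478 and 132374 in non-branching. The branching arrays were close together and non-branching replicate 1 lay just above them, with a difference of -0.22 ± 0.09 (limma adjusted p = 0.307). Its probe set has a less specific design, and it holds the highest value of every array, so quantile normalization makes its difference 0 by construction.

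The other 8 standard large subunit genes above background overlapped between the regions. Their differences ran from -0.19 ± 0.14 for Rpl22 to -0.01 ± 0.09 for Rpl7a, and every one was negative with the deposited scaling. Rpl19 differed by -0.17 ± 0.10, Rpl6 by -0.12 ± 0.10, Rpl8 by -0.10 ± 0.10, Rpl10a by -0.09 ± 0.08, Rpl7 by -0.09 ± 0.09 and Rpl13a by -0.06 ± 0.11. Second probe sets of Rpl10a, with a less specific design, of Rpl22, above background on 3 arrays, and of Rpl19, above on 5, had differences of 0.28 ± 0.21, 0.60 ± 0.52 and -0.23 ± 0.39. The lowest limma adjusted p among these 8 was 0.479, for Rpl19. Rpl7a read 14750, 13076 and 14819 in branching and 15112, 13585 and 14093 in non-branching, so its groups lay on top of each other. Its sign turned with each array centred on its median (0.03) and with quantile normalization (0.05). Branching replicate 1 lay within or above the non-branching arrays for Rpl19 and Rpl6, at 31577 and 29314, while the other branching arrays of both genes were below all non-branching ones.

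Rpl7l1, a paralog of Rpl7, went the other way. It read 517, 584 and 550 in branching and 386, 297 and 377 in non-branching. The regions were well apart, with means of 550 ± 33.7 and 353 ± 49.3 (SD, n = 3). The difference of 0.65 ± 0.20 did not pass (limma adjusted p = 0.166). Rpl7 itself, on its bright probe set, read 20759 ± 860 in branching and 22124 ± 1860 in non-branching, and its second probe set was below background.

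In the small subunit, 6 of 14 genes above background had all branching values below. That is 42.9%, against 11.0% of all tested probe sets and 17.2% of the brightest 10%. Rps4x, the X-linked copy of S4, read 21092, 21944 and 21768 in branching and 26240, 26775 and 26719 in non-branching. Arrays of a region agreed closely here, and the gap between the regions was several times the spread within either. Its means were 21601 ± 450 and 26578 ± 294 (SD, n = 3), the difference was -0.30 ± 0.07, and it fell short of the threshold (limma adjusted p = 0.0711). It passed when the test was limited to the brighter 50% of probe sets (limma adjusted p = 0.0424), and it would pass at an adjusted p under 0.10. Its 4 other probe sets were above background on at most 1 array.

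Rps28, a small protein near the mRNA exit, was read by several probe sets. The brightest gave 33874, 30352 and 31373 in branching and 38998, 34921 and 36330 in non-branching, a difference of -0.21 ± 0.08 (limma adjusted p = 0.287). Its name marks a less specific design. The specific one gave 25547, 21346 and 21799 in branching and 29573, 30852 and 30175 in non-branching. Its difference of -0.40 ± 0.09 was the lowest among members above background on all arrays, with limma adjusted p = 0.0578. Both probe sets thus separated the regions in the same direction, while the last one was below background. The specific one passed with quantile normalization (-0.35, limma adjusted p = 0.0257), within the brighter 50% of probe sets (0.0327), with array weights (0.0269) and without branching replicate 1 (-0.49, adjusted p = 0.0159), and it would pass at an adjusted p under 0.10. Its highest adjusted p, without the variance trend, was 0.362.

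Rps10, a protein near the mRNA entry, read 27228, 24322 and 25357 in branching and 30767, 30370 and 30383 in non-branching, a difference of -0.25 ± 0.08 (limma adjusted p = 0.152). Rps18, a protein of the head of the subunit, read 35799, 32079 and 34612 in branching and 38694, 40287 and 41387 in non-branching, a difference of -0.23 ± 0.08 (limma adjusted p = 0.204). Rps7 read 24371, 19774 and 22684 in branching and 25979, 26310 and 25417 in non-branching, a difference of -0.22 ± 0.09 (limma adjusted p = 0.30). In all 3 the non-branching arrays lay above the highest branching one. The probe set named Rps24 read 44574, 48666 and 47641 in branching and 49779, 54025 and 55510 in non-branching, a difference of -0.18 ± 0.08 (limma adjusted p = 0.359). The annotation gives this probe set the same sequence record as the bright Rpl7 probe set, so which of these mRNAs it reads is uncertain. A second Rps24 probe set, of another record, was above background on 1 array.

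The other 8 small subunit genes overlapped. Rps19, a protein of the small subunit head, read 4195, 3488 and 3572 in branching and 4057, 4455 and 4547 in non-branching, so that branching replicate 1 lay inside the non-branching range (-0.22 ± 0.10, limma adjusted p = 0.376). Rps3a1 differed by -0.16 ± 0.09, Rps4l by -0.09 ± 0.16 (its specific probe set, above background on 5 arrays, by -0.80 ± 0.49) and Rps29 by -0.08 ± 0.21. Rps3, which lines the mRNA entry channel, and Rpsa, also known as the laminin receptor, differed by -0.02 ± 0.08 and 0.01 ± 0.09. Rps3 turned positive with each array centred on its median (0.02) and with quantile normalization (0.07), and Rpsa turned negative with the latter (-0.01). Rps27 differed by 0.06 ± 0.13. Rps13 had a difference of 0.66 ± 0.35 (limma adjusted p = 0.441) on a less specific probe set, and it rested on branching replicate 2: that array read 899, the other branching arrays 393 and 413, and the non-branching arrays 241, 372 and 415. Without branching replicate 2 the difference was 0.27.

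**Figure D3:**
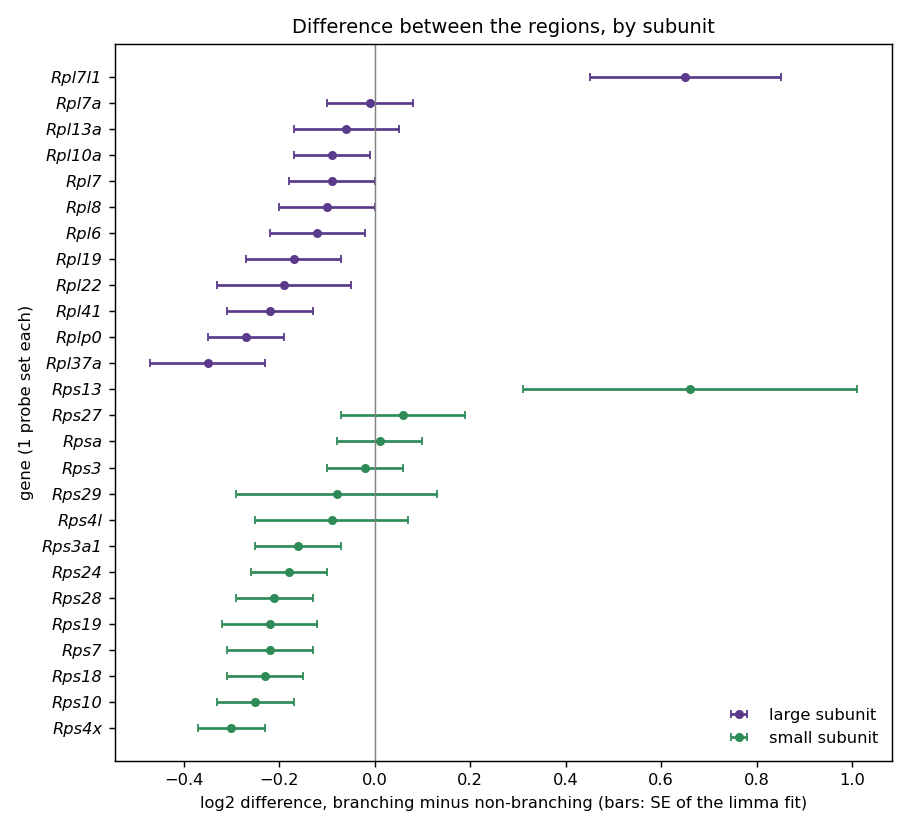
Log2 difference, branching minus non-branching, with the SE of the limma fit (bars) for the 26 genes above background, large subunit above and small subunit below. The large subunit runs from -0.35 to 0.65 and the small subunit from -0.30 to 0.66, with 22 of the 26 points below 0.

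The large minus small level differed little between the regions over the genes that could be read, and its difference depended on which probe sets were used. Over the genes above background, the mean log2 signal of the 12 large subunit genes was 13.42, 13.32 and 13.40 on the branching arrays and 13.45, 13.46 and 13.48 on the non-branching arrays. For the 14 small subunit genes it was 13.08, 13.01 and 13.01 in branching and 13.10, 13.11 and 13.15 in non-branching. In each subunit the branching arrays lay below the non-branching ones over these genes, by 0.08 and 0.09. The paralogs Rpl7l1 (0.65) and Rps4l (-0.09) are counted among these genes, as is Rps13 (0.66). Over all tested genes the small subunit overlapped, at 12.62, 12.46 and 12.55 in branching and 12.57, 12.71 and 12.78 in non-branching. The large minus small value, in which a common scaling of an array cancels, was 0.35 ± 0.04 (SD, n = 3) in branching and 0.35 ± 0.01 in non-branching, a difference of 0.00. With the dim genes kept in, over all 29 genes tested, it was -0.08 ± 0.06 and -0.14 ± 0.10, a difference of 0.06 within the spread of the arrays. Without the symbols that name paralogs that difference was 0.01, and with specific probe sets alone it was 0.23. In the latter setting Rps24 was read by a probe set above background on 1 array, and Rps4l by one above on 5 (-0.80). That setting also keeps Rpl35a and Rps15, with means below background, and leaves out Rps13. Among the probe sets over 10000, all branching values lay below in 2 of 8 of the large subunit (25%, median -0.11). In the small subunit they did so in 7 of 10 (70%, median -0.21). The share among the 95 other probe sets over 10000 was 28.4%. The medians over tested genes were -0.11 in the large and -0.18 in the small subunit. All branching values lay below in 3 of 14 large (21.4%) and 6 of 15 small subunit genes (40%). The share was 11.0% of all tested probe sets and 17.2% of the brightest 10%. No test was made of these summaries, since the genes were chosen with results of these arrays known.

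**Figure D4:**
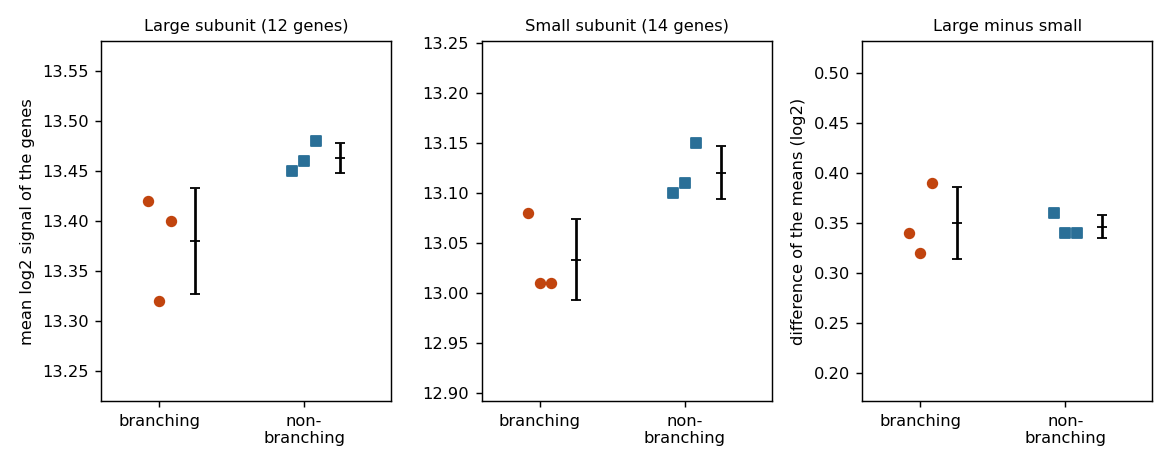
Mean log2 signal per array over the large subunit genes (left), over the small subunit genes (middle) and their difference (right), with branching arrays as circles, non-branching arrays as squares, and the mean and SD of 3 arrays as black bars. Each panel spans the same log2 range, and the groups separate in the left and middle panels but not on the right.

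As a share of the whole signal of an array, the 49 member probe sets held 6.08%, 5.77% and 5.90% in branching and 6.51%, 6.75% and 6.73% in non-branching. This share does not depend on how an array was scaled, and the groups did not overlap. The large subunit held 2.92% to 3.03% against 3.16% to 3.39%, and the small subunit 2.85% to 3.05% against 3.35% on each non-branching array. A few very bright probe sets, Rpl41 first among them, carry much of it. In such dissected samples, fewer cells of a type and less RNA per cell cannot be told apart.

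Markers of other cells moved over the same arrays. Over all tested probe sets, 0.902% rose and 1.13% fell. Of 11 red blood cell genes tested, 4 rose in branching and 8 had a positive difference, with a median of 0.41. The mean log2 level of that list was 10.66 to 11.04 in branching and 10.45 to 10.68 in non-branching. The globin genes Hba-x, Hba-a1 and Hbb-y, which rose, are bright as well, with Hba-x at a mean of 44661 against 24980. Of 7 smooth muscle genes, 5 fell (median -1.0, level 9.26 to 9.54 against 10.36 to 10.44). Of 9 endothelial and 7 cardiac genes, 1 each fell and 0 were positive, with medians of -0.37 and -0.43. The endothelial level was 7.87 to 8.28 in branching and 8.76 to 8.83 in non-branching. The cardiac level was 7.26 to 7.57 and 8.17 to 8.32. Above background on all arrays were 6 of the endothelial and 3 of the cardiac genes. Of 7 neuronal and neural crest genes 1 fell, with a median of 0.16. Of 11 epithelial and 5 leukocyte genes none passed, with medians of 0.06 and 0.22. Nkx2-5 and Nefl were at or below background on all arrays. As to the arrays themselves, the actin control, log2 of its 3' minus its 5' probe sets, was 0.20 to 0.46 in branching and 0.28 to 0.75 in non-branching, and the median control signal for absent transcripts ranged from 19.8 to 40.7 on 5 arrays and was 78.8 on the array of non-branching replicate 2. The part of any of these in the ribosomal protein values was not tested.

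Among genes that help to build ribosomes or regulate ribosomal protein genes, most had more signal in branching. Of 30 such genes tested, 4 rose in branching and 0 fell, 22 had a positive difference, and the median was 0.12. Over all tested probe sets, 0.902% rose, 1.13% fell and 50.4% had a negative difference. Mycn, a transcription factor gene of the Myc family, rose by 0.85 ± 0.15 (SE, limma adjusted p = 0.0210, n = 3 arrays each), with means of 1086 in branching and 602 in non-branching. Ncl, the nucleolin gene, rose by 0.44 ± 0.08 (limma adjusted p = 0.0229), with means of 14809 and 10886. Ubtf, which serves transcription of ribosomal RNA genes, rose by 0.58 ± 0.11 (limma adjusted p = 0.0290), and Nop56, a protein of the particles that methylate ribosomal RNA, by 0.45 ± 0.10 (limma adjusted p = 0.0480). Npm1, Fbl and Larp1 differed by 0.32, 0.24 and 0.27 and did not pass. Genes with a negative difference included Tsc1 at -0.46, Gabpa, above background on 5 arrays, at -0.44, and Polr1c at -0.20. None of these passed either. Myc, above background on 4 arrays, differed by 0.18 ± 0.41. With 1 array left out, Mycn and Ncl passed in 1 of 6 omissions and Ubtf and Nop56 in 0. Without the variance trend 0 of the 4 passed (adjusted p from 0.119 to 0.299). Without the filter on dim probe sets Ncl (0.0648), Nop56 (0.0567) and Ubtf (0.0504) did not pass, and with each array centred on its median Nop56 did not (0.0567).

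The mitochondrial ribosome, a separate particle of other proteins, was represented by its own nuclear genes. Of 59 mitochondrial ribosomal protein genes tested, 1 rose and 0 fell, 45 had a positive difference, and the median was 0.12. Their mean log2 level was 9.12 to 9.22 in branching and 8.96 to 9.06 in non-branching. The gene that rose was Mrpl12, by 0.76 ± 0.14 (limma adjusted p = 0.0273), which passed in 1 of 6 omissions and did not pass without the variance trend (0.168) or without the filter on dim probe sets (0.0626). Of 18 other genes known to start with a pyrimidine tract, 0 passed in either direction and 8 were positive, with a median of -0.06. Those with a negative difference included Eef1a1 at -0.19, Tpt1 at -0.27 and Eef2 at -0.17, and those with a positive one Npm1 at 0.32, Nap1l1 at 0.47 and Btf3 at 0.22. All 23 cell cycle genes tested had a positive difference, 3 of them (Pcna, Rrm2 and Tk1) rose, and the median was 0.42. The difference between these lists and the ribosomal proteins was not tested.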

How the data were processed

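The authors deposited an intensity per probe set on a linear scale for each of 6 arrays. The method and software behind it are not given in the sources used here. The mean of an array without its lowest and highest 2%, averaged over the 6 arrays, was 500.3, as read from the values. The deposited scaling was kept. Of 12488 rows, 66 controls were left out. Gene symbols came from the platform annotation, and the identifiers of all 35 member genes matched RefSeq with the same symbol.

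Values below 16 were raised to 16 before log2, and the dimmest 25% of probe sets were left out. limma 3.58.1 in R 4.3.3 was fitted over the other 9316 with a variance trend (both directions, Benjamini-Hochberg over all of them), and was tested on simulated data. Differences of dim genes are understated by the floor. The number of arrays limits the precision.

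The members and gene lists were chosen with earlier results of these data known. Named genes were members by size of difference, by separation of the groups or from a list by role, which came to nearly every member that could be read. Alternatives covered scaling, floor, filter, variance model, array weights, the replicate number as a block, choice of probe sets and leaving out each array. Those on background, on the Rps24 probe set and on probe sets with several symbols were added after the data were seen.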

Additional observations from a re-analysis of the deposited data

How the results depend on the processing

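The number of member probe sets called higher was 0 in every alternative that counted calls, which leaves out the mean of a gene's probe sets. The number called lower was 1 with quantile normalization and with array weights, 2 with the dimmer 50% left out, 2 at an adjusted p under 0.10, and 0 to 1 with 1 array left out. The median over genes was -0.09 with quantile normalization and -0.21 to -0.11 with 1 array left out. The large subunit median was -0.07 with quantile normalization and with each array centred on its median, -0.14 with array weights, and -0.18 to -0.06 with 1 array left out, and the small subunit median was -0.21 to -0.10 with 1 left out. The large minus small difference has no stable sign: it was -0.09 without the filter on dim probe sets, 0.23 with specific probe sets alone, and -0.09 to 0.09 with 1 array left out, turning negative without non-branching replicate 2 or 3. The causes were not tested. Same-numbered arrays of the regions showed no shared deviation over all tested probe sets (correlations of same-numbered deviations -0.002, 0.013 and -0.015). Such correlations cannot tell whether same-numbered samples were dissected together. With the replicate block 0 members were called, the median stayed at -0.16 and the large minus small difference at 0.06. With that block Mycn (limma adjusted p = 0.0684), Ncl (0.0723), Mrpl12 (0.077), Ubtf (0.0861) and Nop56 (0.118) did not pass, and the calls over all probe sets went from 84 higher and 105 lower to 44 and 70. Single differences close to 0 changed sign: with quantile normalization Rps3 (0.07), Rpl7a (0.05) and Rpsa (-0.01), with median centring Rps3 (0.02) and Rpl7a (0.03), and with 1 array left out Rps3 (-0.08 to 0.03), Rpl7a (up to 0.05), Rpsa (down to -0.04), Rps4l (up to 0.03), Rpl13a (up to 0.01) and Rps29 (-0.19 to 0.04). Probe sets at background limit what can be said of Rpl32, Rpl39, Rps14, Rps20, Rpl35a and Rps15.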
